A study of Mus musculus with 24 samples.

Results

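The choroid plexus is the secretory tissue of the brain ventricles. Its epithelium makes cerebrospinal fluid by moving ions and water from the blood side to the ventricle, and it releases carrier proteins and growth factor antagonists into that fluid. Ttr encodes transthyretin, the thyroid hormone carrier of that fluid and the most abundant transcript of the epithelium. The lateral ventricle and its choroid plexus lie beside the hippocampus, close to the entorhinal cortex, so the tissue can be taken along in a dissection of this region.

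The 24 bulk RNA-seq libraries of subdissected entorhinal cortex were divided by their level of Ttr, as CPM (counts per M reads, a gene's read count over the library total). Of the 24 libraries, 8 had Ttr above 500 CPM and are called rich, and 16 had it at or below 500 CPM and are called poor. The mice were adults of 2 to 4 months, labelled tg/tg, from Nop-tTA Line S crossed to TRE-GlyCl-YFP Line 9531, and the labels name 6 vehicle libraries and 6 libraries each at 1, 2 and 3 days after activation of GlyCl, a chloride channel that silences the neurons carrying it. All 24 libraries, vehicle included, carry both transgenes, and the channel can be made only in cells in which the Nop-tTA driver is active. Females numbered 4 in vehicle and 3 on each day, and males 2 in vehicle and 3 on each day. Each label carries its own animal number, but no label says in words that each library is a separate animal, so p-values may reflect library spread alone.

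The rich libraries were chosen by the Ttr level measured in them. Every difference in gene level between rich and poor libraries is therefore given as a description, with its fold change and standard error (SE) but without a p-value. Other genes of the choroid plexus are not independent of a choice by Ttr. The amount of choroid plexus in each dissection was not tested apart from these transcripts. A gene is counted as higher or lower when edgeR's quasi-likelihood test, with treatment group and sex in the model, gave it a Benjamini-Hochberg adjusted p under 0.05. In bulk tissue, fewer cells of a type and less RNA per cell cannot be told apart.

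The rich libraries were day 3 library 2 at 665 CPM of Ttr, day 1 library 2 at 891, day 2 library 4 at 1174, day 1 library 4 at 983, day 3 library 3 at 562, vehicle library 5 at 1158, day 2 library 6 at 1107 and day 3 library 6 at 1072. The poor libraries ran from 8.28 to 25.9 CPM with a median of 12.3 CPM. Just inside the threshold stood 562 CPM and just outside it 25.9 CPM, a gap of 21.7-fold in which no library fell. Within the rich libraries the highest Ttr was 2.09 times the lowest. In reads, Ttr had 9348 to 27140 in a rich library and 158 to 573 in a poor one, so it was counted in every library.

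Rich libraries occurred in every treatment group and in both sexes. There were 1 of 6 in vehicle, 2 of 6 at day 1, 2 of 6 at day 2 and 3 of 6 at day 3, a spread over groups that an exact permutation test did not separate from an even one (two-sided, chi-square statistic 1.5, p = 0.931). Females made up 5 of the 8 rich libraries and 8 of the 16 poor ones (Fisher's exact test, two-sided, odds ratio 1.67, p = 0.679). Total counts averaged 18.9 ± 2.13 M reads in rich libraries and 19.6 ± 1.63 M reads in poor libraries (SD, n = 8 and 16), a difference of -0.643 M reads (exact permutation test, two-sided, p = 0.424). Genes with at least 1 read numbered 23960 to 24850 per rich library and 23170 to 24980 per poor library. By the first 2 digits of the animal number, the series 79 and 87 held 0 rich libraries of 6, the series 92 held 2 of 2, and the series 88, 94, 97 and 98 held both kinds. The sample titles end in a further number, which ran from 12 to 32 in rich libraries and from 1 to 34 in poor ones. The 6 libraries of series 79 and 87 held all the numbers below 12. The labels do not say what the animal number series or these further numbers stand for.

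In the rich libraries, 143 of 17170 genes tested were higher (0.833%) and 23 were lower (0.134%), 0.967% in either direction. Of the rises, 66 were at least 2-fold, 34 at least 4-fold and 13 at least 16-fold, while 55 were below 1.5-fold. All 23 falls were below 1.2-fold. For 55 genes (0.32%) the 8 rich libraries lay above all 16 poor ones, and for 0 genes (0%) they lay below all of them. These shares come from the contrast that the split itself defines and are given as its size only. Over all genes tested the median log2 fold change was 0.00. An unadjusted p under 0.05 was reached by 2048 genes (11.9%), the share against which such counts in the lists stand.

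The 5 lists of choroid plexus genes covered secretion, ion and water transport, uptake, junctions and transcription factors. Of 40 listed genes that were tested, 31 were higher in rich libraries (0.833% of all genes), 0 were lower and 9 did not pass. For 26 of the 40 the groups did not overlap (0.32% of all genes). Without Ttr, whose level set the groups, 30 of 39 were higher and 25 of 39 did not overlap. Later counts out of 31 include Ttr. The median log2 fold change of the 40 was 1.52, and 1.28 without Ttr, against 0.00 over all genes. Summed over the 39 listed genes other than Ttr, the level was 838 to 1299 CPM in rich libraries and 445 to 548 CPM in poor libraries. The filter on low counts kept a gene with enough reads in the rich libraries alone, so the 40 are not a sample free of the split. The carrier Slco1a5 was left out by it, with 31 reads over the rich libraries and 20 over the poor ones.

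**Figure D1:**
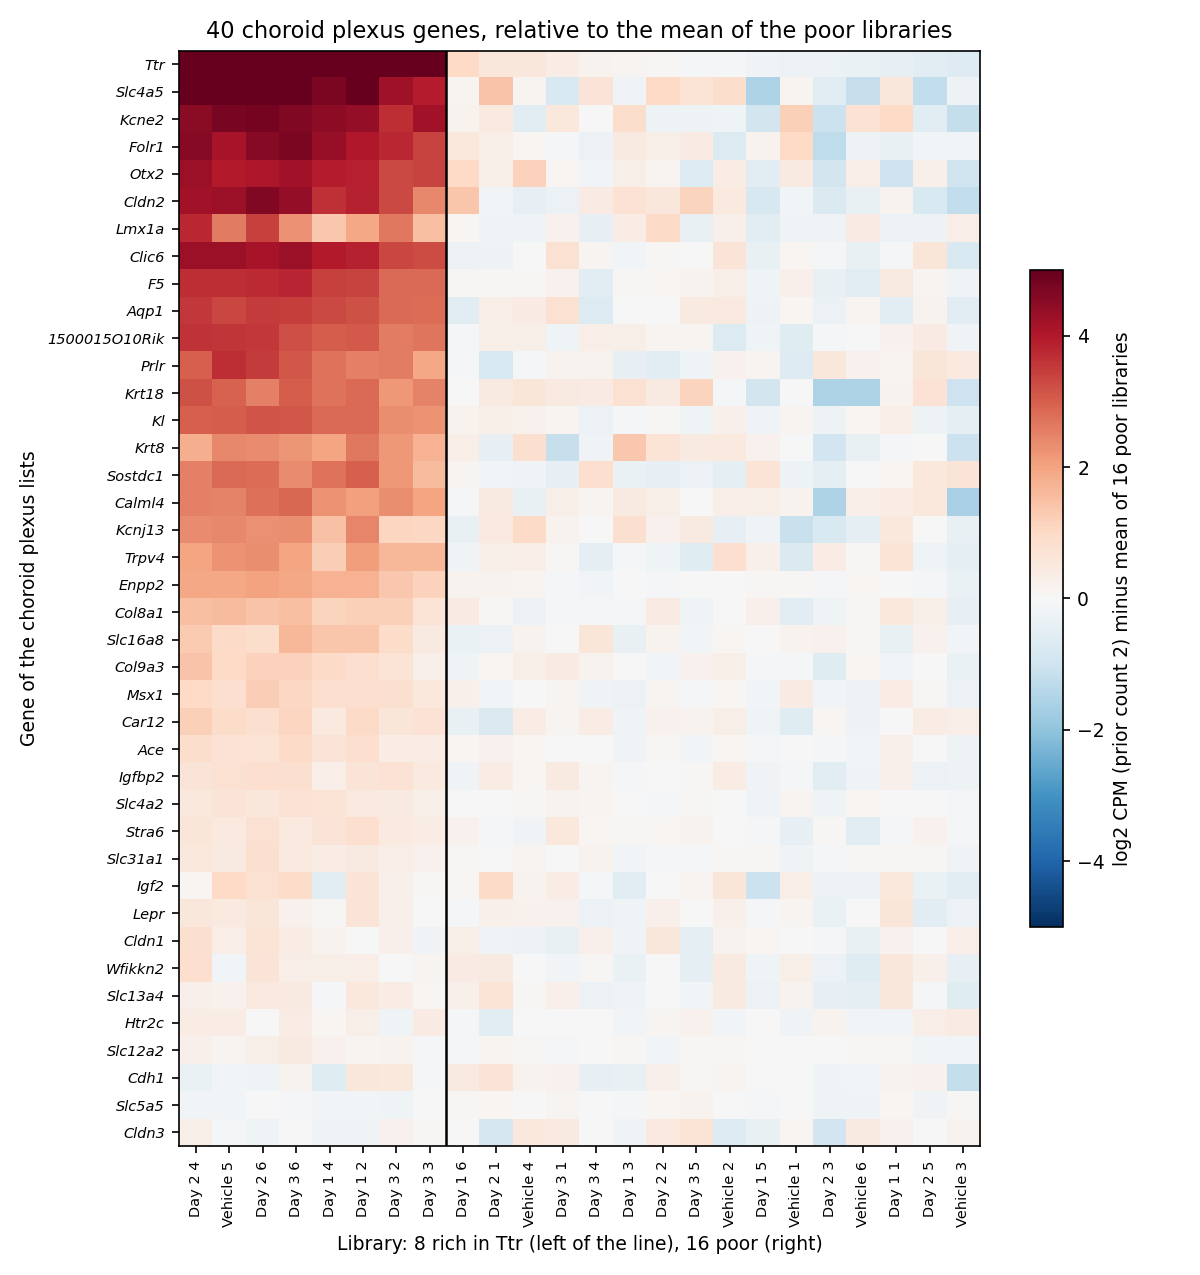
Levels of the 40 tested choroid plexus genes in each library as log2 CPM (prior count 2) minus the mean of the 16 poor libraries, with the 8 rich libraries left of the line and genes ordered by fold change. Values above 5 take the darkest red, which covers Ttr in all rich libraries; from Ttr down to Slc31a1 the rich columns are mostly red, and for the genes at the bottom, from Igf2 to Cldn3, the columns do not divide at the line, with Slc12a2 among them.

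Among 12 secreted proteins and carriers, Ttr included, 10 were higher. Ttr itself, which the split used, averaged 952 ± 230 CPM in rich libraries and 13.5 ± 4.70 CPM in poor libraries (SD, n = 8 and 16), a log2 fold change of 6.13 ± 0.15 (SE). Kl encodes klotho, a membrane protein that is also shed into the cerebrospinal fluid. It had a lowest, median and highest level of 30.3, 48.6 and 56.2 CPM in rich libraries, against 4.61, 6.62 and 7.95 CPM in poor libraries. Its groups did not overlap, and its log2 fold change was 2.89 ± 0.10 (SE).

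Enpp2, which encodes autotaxin, the secreted enzyme that makes lysophosphatidic acid, had 352, 561 and 628 CPM in rich libraries at the lowest, median and highest, against 125, 158 and 180 CPM in poor libraries. It is also made by oligodendrocytes. Its groups did not overlap, and its log2 fold change was 1.76 ± 0.07 (SE). F5, coagulation factor V, was at 9.47 to 19.2 CPM in rich libraries and at 0.82 to 1.77 CPM in poor libraries. The secreted peptide gene 1500015O10Rik, also named Ecrg4, was at 6.16 to 12.9 CPM and at 0.56 to 1.33 CPM. Sostdc1, a secreted antagonist of BMP and Wnt signals, was at 2.65 to 7.19 CPM in rich libraries and at 0.56 to 1.54 CPM in poor libraries. For these 3 genes and for Calml4 and Col8a1, a collagen, no poor library reached the lowest rich one. Col9a3, another collagen, and Igfbp2, an insulin-like growth factor binding protein, were higher with overlapping groups, at log2 fold changes of 0.94 ± 0.11 and 0.58 ± 0.08 (SE). Igf2, the growth factor itself, was at 2.11 to 6.61 CPM in rich libraries and 1.48 to 6.33 CPM in poor libraries and did not pass, nor did the protease inhibitor gene Wfikkn2 at 3.37 to 6.53 CPM and 2.36 to 5.46 CPM.

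Of 12 genes of ion and water transport, 10 were higher. Slc4a5, a sodium bicarbonate cotransporter of the ventricle-facing membrane, had 3.61, 8.41 and 9.07 CPM at the lowest, median and highest of the rich libraries, against 0, 0.16 and 0.55 CPM in poor libraries. Kcne2, a potassium channel subunit of the same membrane, had 2.95, 5.27 and 6.35 CPM in rich libraries, against 0, 0.12 and 0.44 CPM in poor libraries. Both were far above every poor library, with log2 fold changes of 5.27 ± 0.26 and 5.07 ± 0.24 (SE), the largest of the lists after Ttr. Slc4a5 had no read in 3 of the 16 poor libraries and Kcne2 in 2 of them, so these fitted folds depend on few reads.

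Clic6, a chloride channel-like protein, had 12.5, 21.5 and 26.3 CPM in rich libraries, against 0.68, 1.18 and 2.16 CPM in poor libraries, a log2 fold change of 4.04 ± 0.14 (SE). Aqp1, the water channel of the ventricle-facing membrane, had 4.09, 5.96 and 7.01 CPM in rich libraries, against 0.29, 0.52 and 0.93 CPM in poor libraries, a log2 fold change of 3.45 ± 0.16. The groups did not overlap for either gene. The potassium channel Kcnj13 was at 0.84 to 2.43 CPM in rich libraries and 0.11 to 0.81 CPM in poor libraries, so its groups nearly met. The cation channel Trpv4 was at 3.09 to 6.72 CPM and at 0.71 to 2.34 CPM.

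Other transporters moved less. The anion exchanger Slc4a2 was at 28.5 to 38.6 CPM in rich libraries and 19.9 to 26.3 CPM in poor libraries, the carbonic anhydrase Car12 at 20.2 to 32.9 CPM and 8.70 to 18.4 CPM, and the copper transporter Slc31a1 at 19.7 to 29.4 CPM and 15.1 to 19.05 CPM. Each was higher without overlap, at log2 fold changes of 0.55 ± 0.05, 0.78 ± 0.10 and 0.43 ± 0.05 (SE). Slc12a2, the sodium, potassium and chloride cotransporter NKCC1 that other brain cells also express, was at 60.04 to 86.9 CPM and at 58.4 to 71.4 CPM, a log2 fold change of 0.20 ± 0.05 that passed but was lost when any of 11 single libraries was left out. The sulphate transporter Slc13a4 and the iodide transporter Slc5a5 did not pass, at log2 fold changes of 0.23 ± 0.13 and -0.13 ± 0.05.

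Among 7 receptors and uptake proteins, 5 were higher. Folr1, the folate receptor that carries folate into the cerebrospinal fluid, had 4.09, 7.61 and 10.4 CPM at the lowest, median and highest of the rich libraries, against 0.06, 0.31 and 0.71 CPM in poor libraries. Prlr, the prolactin receptor, had 7.40, 14.2 and 24.9 CPM in rich libraries, against 1.05, 2.05 and 2.88 CPM in poor libraries. Both separated without overlap, at log2 fold changes of 4.54 ± 0.19 and 3.00 ± 0.16 (SE). The highest Prlr values, 24.9 and 21.9 CPM, were in vehicle library 5 and day 2 library 6, while day 2 library 4, which had the most Ttr, was at 15.5 CPM.

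The angiotensin-converting enzyme gene Ace was higher without overlap, at 27.4 to 41.1 CPM in rich libraries and 17.9 to 25.7 CPM in poor libraries. The lactate transporter Slc16a8 and the retinol receptor Stra6 were higher with overlap, at log2 fold changes of 1.19 ± 0.16 and 0.50 ± 0.08 (SE). Lepr, the leptin receptor, and Htr2c, a serotonin receptor that neurons also express, did not pass. Htr2c was at 40.1 to 61.8 CPM in rich libraries and 32.2 to 61.1 CPM in poor libraries.

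Of 6 genes of epithelial junctions and keratins, 3 were higher. Cldn2, the claudin that forms the pores of leaky epithelia, had 1.80, 5.86 and 8.96 CPM in rich libraries, against 0.05, 0.22 and 0.86 CPM in poor libraries, a log2 fold change of 4.12 ± 0.28 (SE). The simple-epithelium keratins Krt8 and Krt18 were at 0.60 to 1.24 CPM and 1.35 to 2.82 CPM in rich libraries, and at 0 to 0.44 CPM and 0 to 0.59 CPM in poor libraries. All 3 separated without overlap. The claudins Cldn1 and Cldn3 and the cadherin Cdh1 did not pass, and their groups overlapped. Cldn3 was at 0.75 to 1.08 CPM in rich libraries, within its range of 0.39 to 1.48 CPM in poor libraries.

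All 3 transcription factors of the lists were higher without overlap. Otx2, a homeobox factor needed to form and keep the choroid plexus, had 3.00, 4.77 and 6.05 CPM in rich libraries, against 0.05, 0.26 and 0.60 CPM in poor libraries, a log2 fold change of 4.34 ± 0.22 (SE). Lmx1a, a homeobox factor of the dorsal midline from which the tissue arises, had 104 reads over the 8 rich libraries and 9 reads over the 16 poor ones, 9 of which had none. Msx1 was at 6.98 to 11.4 CPM in rich libraries and 3.91 to 6.56 CPM in poor libraries.

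Outside all lists, 106 genes were higher. The largest rises among those averaging at least 1 CPM were Mfrp, which encodes a frizzled-related membrane protein, at a log2 fold change of 4.74 ± 0.25, and Tmem72, a membrane protein gene, at 4.71 ± 0.18 (SE). Mfrp had 3.36, 5.15 and 7.42 CPM at the lowest, median and highest of the rich libraries, against 0, 0.18 and 0.65 CPM in poor libraries. Tmem72 had 8.18, 13.8 and 18.1 CPM in rich libraries, against 0.20, 0.55 and 0.92 CPM in poor libraries. The groups did not overlap for either gene.

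The promoters of these genes and of Slc4a5 are shown because Slc4a5 had the largest fold change of the lists after Ttr, and Mfrp and Tmem72 the largest outside them among genes averaging at least 1 CPM, and because Otx2 was higher with them. Each line gives the 250 bases before the annotated start, 5′ to 3′ on the gene's strand, from RefSeq on build GRCm38.p6, which is another build than that of the counts. Capitals mark TAATCC or its reverse complement GGATTA, the core bound by OTX homeobox proteins, searched on both strands. The windows are chr9:44101520-44101769 on the plus strand for Mfrp, chr6:83237125-83237374 on the plus strand for Slc4a5 and chr6:116716759-116717008 on the minus strand for Tmem72.
Mfrp: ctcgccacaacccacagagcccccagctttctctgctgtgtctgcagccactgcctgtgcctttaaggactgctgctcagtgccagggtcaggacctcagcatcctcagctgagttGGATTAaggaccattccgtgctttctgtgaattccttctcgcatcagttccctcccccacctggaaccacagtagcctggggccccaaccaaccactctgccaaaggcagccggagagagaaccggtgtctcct
Slc4a5: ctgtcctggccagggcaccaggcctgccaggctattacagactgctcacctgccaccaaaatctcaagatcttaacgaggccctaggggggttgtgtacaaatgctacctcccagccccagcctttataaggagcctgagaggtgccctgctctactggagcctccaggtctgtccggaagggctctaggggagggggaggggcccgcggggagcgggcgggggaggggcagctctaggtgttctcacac
Tmem72: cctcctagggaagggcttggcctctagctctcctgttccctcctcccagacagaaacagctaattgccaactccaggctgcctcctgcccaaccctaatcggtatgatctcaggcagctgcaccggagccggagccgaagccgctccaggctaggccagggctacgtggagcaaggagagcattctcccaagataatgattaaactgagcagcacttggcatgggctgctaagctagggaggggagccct
The motif was in the Mfrp window and in neither of the other two. Of the 31 listed genes that were higher, 24 had a promoter in the table, and Otx2 itself and Ace had the motif in 1 window each. Counted over windows, it was in 2 of 36 windows of these genes (5.56%) and in 2054 of all 32851 windows (6.25%). A match is a run of letters and not a shown binding site.

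The other rises outside the lists among genes averaging at least 1 CPM were below 5-fold. Lbp, the lipopolysaccharide-binding protein, was at 5.60 to 11.4 CPM in rich libraries and 0.73 to 3.43 CPM in poor libraries, a log2 fold change of 2.01 ± 0.14 (SE). Drc7, a part of the dynein regulatory complex of motile cilia, was at 3.83 to 7.43 CPM and 0.61 to 2.08 CPM, a log2 fold change of 2.16 ± 0.15. Abca4, a retinoid transporter, and Rdh5, a retinol dehydrogenase, were at log2 fold changes of 1.42 ± 0.11 and 1.15 ± 0.15, and Slc2a12, a glucose transporter, at 1.14 ± 0.11. The rich libraries lay above every poor library for all 5. The collagens Col8a2 and Col4a4 had log2 fold changes of 1.44 ± 0.15 and 1.92 ± 0.23, the second with overlap. A2m, the protease inhibitor alpha-2-macroglobulin, spread widely within the rich libraries, at 1.56 to 8.62 CPM, against 0.39 to 1.87 CPM in poor libraries.

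The largest rises outside the lists among genes averaging at least 10 CPM were smaller. Trpm3, a steroid-sensitive cation channel of the choroid plexus and of neurons, was at 85.03 to 108 CPM in rich libraries and 59.3 to 73.7 CPM in poor libraries, a log2 fold change of 0.56 ± 0.05 (SE) without overlap. Sulf1, a heparan sulphate endosulphatase, and Cab39l were also above every poor library, at 0.61 ± 0.07 and 0.44 ± 0.04. Steap2, Slc29a4, Cgnl1, Elovl7, Strip2, Ucp2 and Arsg had log2 fold changes from 0.36 to 0.54, with overlap. Of the 55 genes without overlap, 26 were on the choroid plexus lists, Ttr included, 1 on another list and 28 on none.

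**Figure D2:**
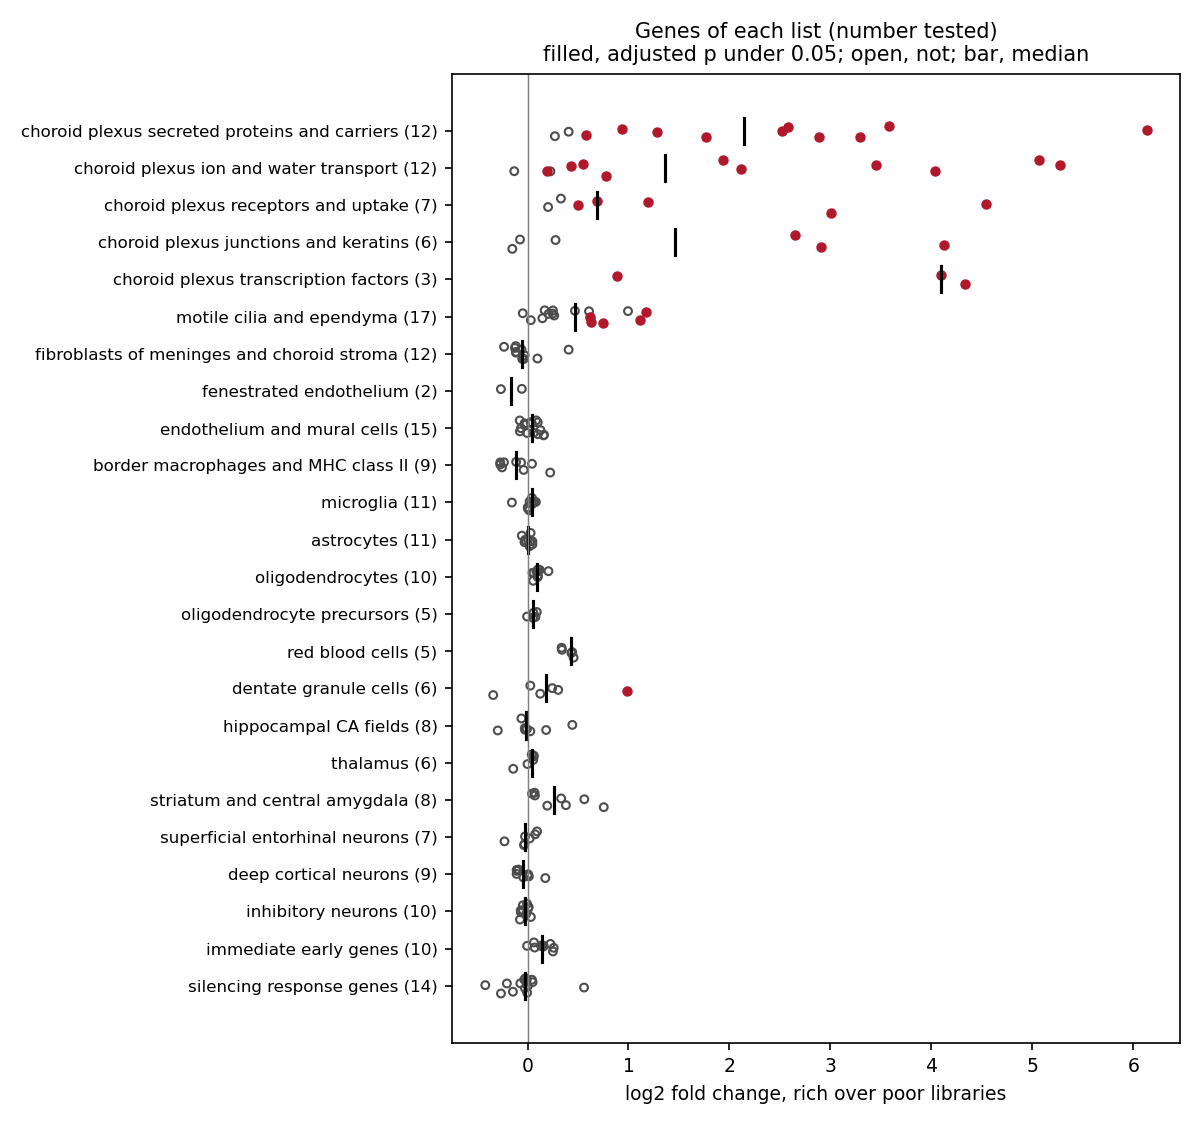
Log2 fold change, rich over poor libraries, of every tested gene in 24 lists of cell types, regions and responses, with the number tested in brackets, filled points for genes with an adjusted p under 0.05 and a bar at the median. The 5 choroid plexus lists at the top have medians from 0.69 to 4.09, motile cilia and ependyma lie at 0.47, and the lists of brain cell types and regions below lie between -0.16 and 0.43.

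The listed genes kept their order of level across the rich libraries only in part. Day 3 library 3 and day 3 library 2, which had the least Ttr, also had the least Kl, at 30.3 and 32.3 CPM, while the other 6 rich libraries were at 45.05 to 56.2 CPM. The same libraries had the lowest Slc4a5, at 3.61 and 4.61 CPM, against 6.34 to 9.07 CPM in the other 6. Lmx1a did not follow this order, with its lowest values of 0.22 and 0.24 CPM in day 1 library 4 and day 3 library 3.

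Level above the poor mean was set against Ttr to see how fixed the proportions were. Per 1000 reads of Ttr above the poor mean, Kl had 38.7 to 45.6 reads above its own poor mean across the 8 rich libraries, a coefficient of variation (CV) of 6.36%, while its CPM varied by 21.5%. Enpp2 had 354 to 430 such reads (CV 7.08%), Clic6 18.6 to 23.6 (7.56% against 26.7%) and Aqp1 4.79 to 6.48 (8.16% against 19.4%). F5 and Otx2 also varied less against Ttr than alone, at 8.70% and 9.65%. Over the 30 listed higher genes other than Ttr, however, the CV was smaller against Ttr than for the plain CPM in 16. For Slc12a2, whose excess was below 0 in 1 library, it was 89.3%.

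How 8 of the genes went with Ttr within each kind of library is given as a description on log2 CPM (prior count 2), with no test, since Ttr chose the libraries and all values of a library share its total. Over the 8 rich libraries Pearson's r with Ttr was 0.981 for Enpp2, 0.978 for Clic6, 0.973 for Kl and 0.961 for Aqp1, with Spearman's rho of 0.81, 0.833, 0.786 and 0.929. Folr1 and Kcnj13 had r of 0.896 and 0.853, with rho of 0.714 and 0.595. Igf2 and Igfbp2 had r of 0.351 and 0.376.

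Leaving out day 3 libraries 2 and 3, the farthest from the median of Ttr, left r at 0.815 for Enpp2, 0.899 for Clic6, 0.786 for Kl, 0.788 for Aqp1, 0.52 for Folr1 and 0.278 for Kcnj13 over 6 libraries. The r of Kcnj13 rested on those libraries. Over the 16 poor libraries r was 0.609 for Enpp2 and 0.474 for Kl, and the other 6 genes had r from 0.0497 to 0.395. Without day 1 library 6 and day 2 library 1, r fell to 0.424 for Enpp2, 0.356 for Kl, 0.189 for Folr1 and 0.275 for Igf2. It rose to 0.334 for Clic6, 0.455 for Aqp1, 0.551 for Kcnj13 and 0.556 for Igfbp2. No animal number series held more than 2 rich or 4 poor libraries, too few to repeat this within a series.

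**Figure D3:**
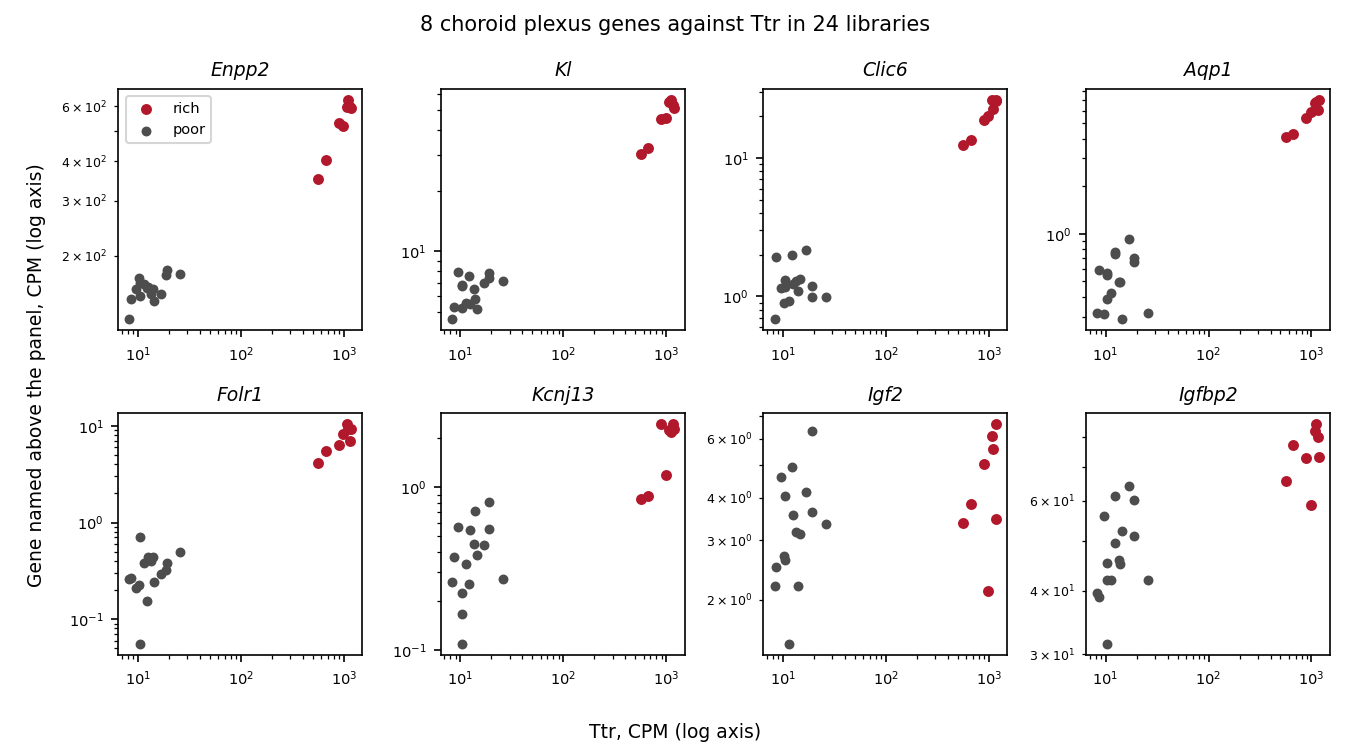
CPM of 8 choroid plexus genes against CPM of Ttr, both on log axes, with the 8 rich libraries in red and the 16 poor ones in grey. For Enpp2, Kl, Clic6, Aqp1 and Folr1 the red points climb with Ttr between 562 and 1174 CPM and stand clear of the grey ones, while for Igf2 and Igfbp2 red and grey share part of their range.

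The separation was also looked at inside each treatment group and each animal number series, over the 30 listed genes other than Ttr that were higher in the whole set, which were chosen by that same contrast. For 25 of the 30 the 8 rich libraries already lay above all 16 poor ones, so these had to separate in every group and series. Only the remaining genes could vary, and the counts are no repeat of the result. The share of all 17170 genes that lay so is given beside each count. In vehicle the rich library was above all 5 poor libraries for 30 of 30 genes (14.7% of all genes). At day 1 both rich libraries were above all 4 poor ones for 30 of 30 (14%), and at day 2 likewise (7.64%). At day 3 the 3 rich libraries were above the 3 poor ones for 26 of 30 (7.72%), with Col9a3, Slc12a2, Slc16a8 and Stra6 as exceptions. In the animal number series 88, 97 and 98 it was 30 of 30 (56.6%, 15.6% and 28.6% of all genes), and in series 94 it was 28 of 30 (7.54%), with Col9a3 and Slc12a2 as exceptions. Series 88 held only 1 rich and 1 poor library, series 97 held 2 and 2, series 98 held 1 and 3, and series 94 held 2 and 4. With the series as a further factor in the model, 30 of the 31 listed genes stayed past the threshold and Slc12a2 did not, while the whole count became 101 higher and 1 lower.

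No difference between the sexes was found in how rich and poor libraries differed. An interaction of sex with the split called 0 of 17170 genes (0%) in edgeR's quasi-likelihood test, with 560 at an unadjusted p under 0.05 and 0 of the 40 listed genes among those. There were 5 rich female and 3 rich male libraries, which limits what this test can detect. In male libraries alone 17 of the 31 listed genes passed, and in female libraries alone 30 of 31.

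Of 17 genes of motile cilia and ependyma, the ciliated lining of the ventricles that adjoins the choroid plexus, 5 were higher and 12 did not pass, with a median log2 fold change of 0.47 against 0.00 over all genes. The 5 were Foxj1, the main regulator of motile ciliogenesis (0.63 ± 0.11, SE), the dynein heavy chains Dnah6 (0.75 ± 0.09) and Dnah11 (1.11 ± 0.22), Tekt1, a tektin of the axoneme (0.62 ± 0.15), and Pifo (1.18 ± 0.28). Groups overlapped for all 5, with Foxj1 at 5.35 to 8.92 CPM in rich libraries and 2.85 to 6.12 CPM in poor libraries. Of these, Dnah6 alone stayed past the threshold with the animal number series in the model. The summed level of the list was 41.7 to 54.3 CPM in rich libraries and 30.3 to 42.6 CPM in poor libraries. An unadjusted p under 0.05 was reached by 10 of the 17, all higher, against 11.9% of all genes. Whether these transcripts come from ependyma or from ciliated cells of the choroid plexus was not tested. Outside the lists, the sperm flagellar and ciliary genes Spef2 and Iqub and the p53 family gene Trp73 had log2 fold changes of 0.94 ± 0.22, 0.98 ± 0.14 and 0.87 ± 0.21, with overlap.

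No listed gene of fibroblasts, vessels or border macrophages passed. Most of these lists are not limited to the choroid plexus, so cells under its epithelium were not measured apart from those elsewhere. Of 12 fibroblast genes of the meninges and choroid stroma, 0 passed, with 2 at an unadjusted p under 0.05 and 0 by DESeq2 or limma voom. Their summed level was 172 to 225 CPM in rich libraries and 159 to 305 CPM in poor libraries, and Col1a1, a fibrillar collagen, was at 16.9 to 25.9 CPM and 13.8 to 34.7 CPM. Plvap, the diaphragm protein of fenestrated capillaries, was at 9.84 to 14.6 CPM in rich libraries and 10.9 to 15.9 CPM in poor libraries, with a log2 fold change of -0.06 ± 0.08. It and Esm1 did not pass (0 of 2 at an unadjusted p under 0.05, and 0 by DESeq2 or limma voom). Of 15 genes of endothelium and mural cells 0 passed (3 unadjusted), and of 9 genes of border macrophages and MHC class II 0 passed (0 unadjusted), with 0 in each list by DESeq2 or limma voom.

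Genes of red blood cells were higher in median but not past the threshold. All 5 had a positive log2 fold change, with a median of 0.43, and 0 passed in edgeR, DESeq2 or limma voom, with 2 at an unadjusted p under 0.05. Their summed level was 89.2 to 309 CPM in rich libraries and 51.7 to 167 CPM in poor libraries, with wide overlap. Reads of the near-identical haemoglobin genes may have been divided between copies.

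Genes of neighbouring regions were used to see whether they were higher in the rich libraries. Of 8 genes of striatum and central amygdala, 0 passed in edgeR, DESeq2 or limma voom and 5 had an unadjusted p under 0.05, against 11.9% of all genes, with a median log2 fold change of 0.26. Their summed level was 185 to 315 CPM in rich libraries and 163 to 251 CPM in poor libraries, and Adora2a, an adenosine receptor of striatal projection neurons, was at 6.83 to 25.7 CPM and 1.81 to 16.9 CPM. Of 6 genes of dentate granule cells, 1 was higher. It was Dsp, which encodes desmoplakin, a protein of epithelial desmosomes as well, at 2.04 to 3.49 CPM in rich libraries and 0.50 to 1.97 CPM in poor libraries (log2 fold change 0.99 ± 0.16, SE). Prox1, the defining factor of the granule cell, was at 12.3 to 19.4 CPM and 10.5 to 16.8 CPM and did not pass. Of the 6 dentate genes, 3 had an unadjusted p under 0.05, 2 higher and 1 lower. Of 8 genes of the hippocampal CA fields 0 passed (1 unadjusted) and of 6 of the thalamus 0 passed (0 unadjusted), also with 0 by DESeq2 or limma voom.

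No listed gene of entorhinal neurons or glia passed. Of 7 genes of superficial entorhinal neurons, 9 of deep cortical neurons and 10 of inhibitory neurons, 0 passed in edgeR, DESeq2 or limma voom, with 1, 2 and 0 at an unadjusted p under 0.05. Superficial entorhinal genes summed to 737 to 870 CPM in rich libraries and 762 to 833 CPM in poor libraries. Of 11 astrocyte, 10 oligodendrocyte, 5 oligodendrocyte precursor and 11 microglial genes, 0 passed in any of the 3 tools, with 0, 2, 0 and 1 unadjusted. Among 10 immediate early genes 0 passed (0 unadjusted), and their sum spread widely in both groups, at 715 to 1759 CPM in rich libraries and 411 to 1870 CPM in poor libraries. The silencing response list gave 0 of 14 (2 unadjusted), with 0 by DESeq2 or limma voom for both of these lists.

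The 23 genes that were lower in rich libraries moved by very little, with log2 fold changes from -0.24 to -0.09. The largest fall was that of Cbln4, a secreted synaptic organizer, at 17.6 to 33.2 CPM in rich libraries and 25.9 to 37.1 CPM in poor libraries (-0.24 ± 0.06, SE). Galnt18 and Galnt9, glycosyltransferase genes, were at -0.21 ± 0.05 each, Psmb7, a proteasome subunit, at -0.21 ± 0.04, and Fxyd6, a modulator of the sodium pump, at -0.20 ± 0.05. Adcy8, an adenylate cyclase, Cnih3, an auxiliary subunit of AMPA receptors, Eml2, Zfp746 and Cers1, a ceramide synthase, lay between -0.18 and -0.15. Groups overlapped for all 23. Leaving out single libraries moved the number of all lower calls between 7, without day 1 library 2, and 45, without day 2 library 3. Of the 23, such fits kept 6 to 22, and 1 stayed past the threshold with the animal number series in the model.

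The study compares each day with vehicle, and the rich libraries numbered 1 in vehicle and 2, 2 and 3 at days 1, 2 and 3. Without the split in the model, the 40 choroid plexus genes had a median log2 fold change over vehicle of 0.25 at day 1, 0.39 at day 2 and 0.48 at day 3, against 0.00 over all genes on each day. With the split as a term, the medians were -0.04, 0.05 and -0.10, and the median SE of these genes was 0.21, 0.20 and 0.21, against 0.41 on each day without it. The term is drawn from Ttr, so it takes up the variation of these genes by its construction. In edgeR's quasi-likelihood test 0 of the 40 passed on any day, with or without the term. The 3 days share the vehicle libraries, so their medians are not independent.

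**Figure D4:**
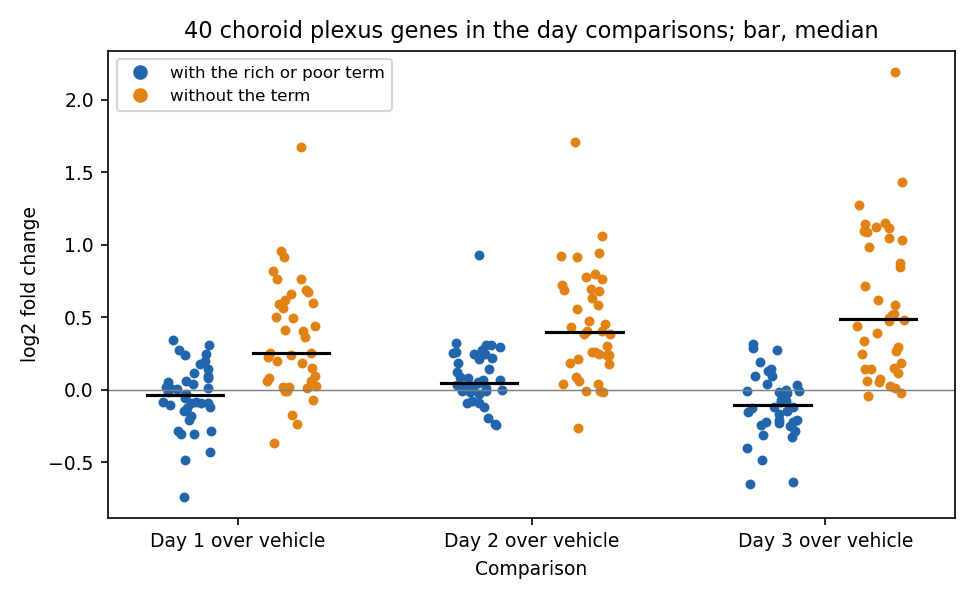
Log2 fold changes of the 40 choroid plexus genes in each comparison of a day with vehicle, in blue with the rich or poor term in the model and in orange without it, with a bar at the median. The medians without the term are 0.25, 0.39 and 0.48 at days 1, 2 and 3, and with it they are -0.04, 0.05 and -0.10.

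Over all genes, the term changed the calls of few genes. With it, day 1 had 12 genes past the threshold (0.0699% of 17170), day 2 had 8 (0.0466%) and day 3 had 94 (0.547%). Without it, the counts were 11 (0.0641%), 9 (0.0524%) and 106 (0.617%). At day 3, 92 genes were called either way, 2 with the term alone and 14 without it alone. The biological coefficient of variation was 7.55% with the term and 8.53% without it.

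The genes whose call the term decided at day 3 had nearly the same fold change in both models. C1ql2, a synaptic organizer made by dentate granule cells, was at 0.71 ± 0.14 with the term and at 0.60 ± 0.16 without it (edgeR, SE, adjusted p = 0.00788 and 0.102). Slc1a4, a neutral amino acid transporter, was at 0.20 ± 0.04 and at 0.18 ± 0.04 (edgeR adjusted p = 0.0166 and 0.061). Cx3cr1, the fractalkine receptor of microglia, was at 0.23 ± 0.06 with the term and at 0.26 ± 0.06 without it (edgeR adjusted p = 0.104 and 0.041), and Ptprc, the leukocyte antigen CD45, was at 0.60 ± 0.16 and at 0.67 ± 0.16 (edgeR adjusted p = 0.0913 and 0.041). The other 12 that lost their call were Apbb1ip, Cd52, Cyth4, Ddx58, Eif2ak2, Espl1, Gbp3, Glipr1, Lmnb1, Man2b1, Rtp4 and Tbxas1. Cacnb3 at day 1 was called with the term alone and Ccl6 at day 2 without it alone; all these genes are named because the count is small, after their values were seen.

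In the 16 poor libraries alone, with 5 vehicle, 4 day 1, 4 day 2 and 3 day 3 libraries, the counts were 10 (0.0582%), 2 (0.0116%) and 51 (0.297%) at days 1, 2 and 3. Of these, 6, 2 and 51 genes were also called in all 24 libraries with the term. Of the 14 silencing response genes, which were picked from earlier results of these libraries, 2, 7 and 13 passed at days 1, 2 and 3 with the term and as many without it. In the poor libraries alone they were 1, 2 and 13. Gfap, the astrocyte intermediate filament, had a day 3 log2 fold change over vehicle of 1.13 ± 0.08 with the term, 1.12 ± 0.08 without it and 1.10 ± 0.09 in the poor libraries (SE). The microglial chemokine Ccl3 had 5.34 ± 0.49, 5.32 ± 0.48 and 5.40 ± 0.61. The comparison of poor libraries has fewer libraries as well as little Ttr, and their parts in the smaller counts cannot be told apart.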

How the data were processed

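Bulk RNA-seq read counts of 24 libraries were deposited by the authors as 1 table of whole-number counts per gene, not normalized, with 55417 entries. The submitters' processing notes name DESeq2 1.32.0, STAR 2.7.9a and fastp 0.23.1, with build mm39. The counting program, annotation and strand setting are not named there, so overlapping and antisense genes cannot be told apart. Symbols were matched for 52083 identifiers.

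Ttr CPM was its count over the library total, and the threshold of 500 CPM divided the libraries. The members and gene lists were chosen with earlier results of these data known. Because the split uses a measured level, its contrast is descriptive. Counts were fitted with edgeR 4.0.16 in R 4.3.3 (trimmed mean of M values, filterByExpr with minimum count 10 and total 15, quasi-likelihood test) on all 24 libraries with treatment group, sex and the split. The filter kept 17170 genes, 45 without a symbol. P-values were adjusted by Benjamini and Hochberg's method over the genes tested. The procedure was tested on simulated data.

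Named genes were all measured members of the 5 choroid plexus lists and members of other lists past the threshold. To these were added, among genes in no list averaging at least 1 CPM, the 20 largest rises and 10 largest falls, and 10 rises averaging at least 10 CPM. Members of the silencing response list were followed in the comparisons of days.

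Rich libraries by group and depth were tested by exact permutation, with SciPy 1.17.1. Planned permutation tests of the relations with Ttr (all orders over 8 libraries, 100000 resamples over 16) are not used as support, because Ttr chose the libraries. Only their counts past the threshold are given, where the dependence on processing is described. Alternatives were other normalization factors, other filters, DESeq2 1.42.0, limma 3.58.1 voom, other covariates, either sex, Ttr as a number, and leaving out each library. Total counts were 16.6 to 23.7 M reads per library, which sets the precision of low genes. Library pairs of a group differed beyond sampling noise (chi-square over degrees of freedom 3.94 to 13.8 in 60 pairs). Replicate numbers follow accession order and pair nothing.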

Additional observations from a re-analysis of the deposited data

Results flagged for a closer look

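Vehicle library 5 stood apart from the other 5 vehicle libraries in Ttr, at 1158 CPM against 8.28 to 18.9 CPM, being the only rich library of its group. Its total of 23.4 M reads was also far from the other 5 vehicle libraries, at 17.8 to 19.7 M reads, and from the other 7 rich libraries, at 16.6 to 19.6 M reads. Day 3 library 3, which had the least Ttr of the rich libraries at 562 CPM, had 16.6 M reads, against 19.3 to 20.8 M reads in the other 5 day 3 libraries. These 4 flags came from 49 sets of values, in which chance would flag about 1 in 20 if the sets were independent. They are not independent. The Ttr flag follows from the split, and the total of vehicle library 5 was flagged among both the vehicle and the rich libraries. Most sets are choroid plexus genes in the same rich libraries, so the number of flags cannot be set against chance.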

How the results depend on the processing

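The 166 genes past the threshold between rich and poor libraries became 448 without the filter on low counts, 273 with DESeq2, 102 with the animal number series in the model, 97 in female and 28 in male libraries alone. Fewer libraries in the sexes, and more genes tested without the filter, are part of those settings. DESeq2 was also run without that filter, with 34098 genes tested against 17170 in the main fit. Of those 17170, it put 217 past the threshold. The cause of the other changes was not tested. The 55 genes without overlap became 155 in female and 280 in male libraries, where fewer libraries overlap less. Leaving out each library gave 125 to 205 genes past the threshold and 55 to 67 without overlap. Higher calls then numbered 116 to 172 and lower calls 7 to 45. DESeq2 gave 206 higher and 67 lower, and no filter 334 higher and 114 lower.

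Of the 31 choroid plexus genes past the threshold, 30 or 31 remained so with each other tool, set of factors, filter on low counts in which they were tested, and left-out library, Slc12a2 being the exception wherever there was 1. Male libraries alone kept 17. A filter of at least 1 CPM in at least 8 libraries tested 28 of them and kept 28. Without vehicle library 5, the only rich vehicle library, a setting chosen after seeing the data, 125 genes were higher and 17 lower. For the named genes and relations no direction of a called value turned round.

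Among the comparisons of days with vehicle, DESeq2 with the split as a term gave 70, 47 and 153 genes at days 1, 2 and 3. It was run without the filter on low counts, with 36065 genes tested against 17170. The poor libraries alone gave 2 at day 2 and 51 at day 3. Of the 16 relations with Ttr, a permutation test with adjustment over them put 7 past the threshold by Pearson's r and 1 by Spearman's rho; Ttr chose the libraries, so these counts are no support. The difference in total counts was -0.545 M reads by medians. No paired analysis was possible because replicate numbers were given in accession order and the labels tie no libraries across groups. Genes with a few reads in poor libraries, such as Lmx1a, Kcne2 and Slc4a5, have fold changes limited by depth.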
